A study of Mus musculus with 26 samples.

Results

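Dpp4, Lgmn, Habp2, Tfec, Myl4 and Rhbdl3 are 6 genes with a large or clear difference between neural progenitor cells (NPCs) rescued with a CTCF that lacks its zinc finger 1 (NPC-ΔZF1) and NPCs rescued with wild-type CTCF (NPC-WT). They were selected on that difference, out of 55291 gene symbols in the counts and 16641 that passed the filter on low counts, so the difference itself is given as a description and is not tested. All 6 passed the filter in the rescue lines, and 5 passed it in the truncation lines, where Rhbdl3 did not. Dpp4, Lgmn, Habp2 and Tfec were higher in NPC-ΔZF1, and Myl4 and Rhbdl3, both on chromosome 11, were lower.

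RNA-seq was performed on 26 libraries in 10 groups, all from E14 (E14TG2a) mouse embryonic stem cells (ESCs) or NPCs differentiated from them for 2 days on laminin. Of these, 8 came from the rescue lines, with 2 per group for each genotype (WT or ΔZF1) and cell type (ESC or NPC). Every rescue line carried mAID-eGFP on both endogenous CTCF alleles, a mutant OsTIR1 at Rosa26, an mCherry reporter at Hb9 and a doxycycline-inducible Flag-Halo-CTCF, WT or ΔZF1, at Tigre, and all were treated with 1 µM 5-Ph-IAA and 1 µg/ml doxycycline for 24 h, which degrades endogenous CTCF and turns on the rescue. No untreated or unrescued group of these lines was analysed here, and each rescue genotype was 1 clone, so a difference between genotypes and a difference between clones cannot be told apart. The other 18 libraries, 3 per group, were untreated parental E14 cells (E14) and lines with a homozygous eGFP-SV40pA insertion after the first coding exon of Podxl (Podxl pA) or Grb10 (Grb10 pA), each as ESCs and as NPCs. The 2 experiments were counted and normalized in separate tables, so their levels are set side by side and were not tested against each other. Whether libraries of a group came from separate cultures is stated only as biological replicates.

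Dpp4 encodes a membrane serine peptidase that removes dipeptides from chemokines and incretins. Lgmn encodes legumain, an asparaginyl endopeptidase of the lysosome. Habp2 encodes a hyaluronan-binding plasma serine protease, and Tfec a basic helix-loop-helix leucine zipper factor of the MiT/TFE family, which binds E-boxes and includes regulators of lysosomal genes. Myl4 encodes the atrial and embryonic essential myosin light chain, and Rhbdl3 a rhomboid-like intramembrane protease. CTCF binds DNA through its central zinc fingers and anchors chromatin loops with cohesin, while its zinc finger 1 is among the parts known to bind RNA.

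The 6 genes lie on 5 chromosomes of GRCm38 (GENCODE M21). Dpp4 is at chr2:62330073-62412231 (minus strand), Lgmn at chr12:102394084-102439813 (minus), Habp2 at chr19:56287137-56320822 (plus) and Tfec at chr6:16833373-16898441 (minus). On chromosome 11, Rhbdl3 is at chr11:80300912-80355955 (plus) and Myl4 at chr11:104550663-104595753 (plus). The counting ignored strand, and Dpp4, Habp2 and Myl4 overlap other annotated genes (Gm13561, Nrap, and Gm11665, Gm22000, Gm11661 and Gm11663), so reads in the overlaps cannot be assigned with certainty. Those overlapping genes themselves held 0 to 8 counts in any library.

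Promoter sequences from RefSeq (GRCm38.p6) were found for 5 of the 6 genes; Rhbdl3 was not matched. The 250 bases before the annotated start are shown for the 4 genes that were higher in NPC-ΔZF1, since these 4 moved together, with motif matches in capitals. These are chr2:62412232-62412481 (minus strand) for Dpp4, chr12:102439093-102439342 (minus) for an internal start of Lgmn, chr19:56287662-56287911 (plus) for Habp2 and chr6:16898442-16898691 (minus) for Tfec. The windows of Dpp4 and Tfec lie before the GENCODE gene, and those of Habp2 and the internal Lgmn start lie inside the gene, outside annotated exons.
Dpp4: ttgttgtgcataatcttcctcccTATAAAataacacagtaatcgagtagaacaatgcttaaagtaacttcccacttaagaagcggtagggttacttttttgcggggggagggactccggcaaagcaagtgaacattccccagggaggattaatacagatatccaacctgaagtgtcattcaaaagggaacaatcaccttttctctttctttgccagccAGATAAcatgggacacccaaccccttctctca
Lgmn, internal start: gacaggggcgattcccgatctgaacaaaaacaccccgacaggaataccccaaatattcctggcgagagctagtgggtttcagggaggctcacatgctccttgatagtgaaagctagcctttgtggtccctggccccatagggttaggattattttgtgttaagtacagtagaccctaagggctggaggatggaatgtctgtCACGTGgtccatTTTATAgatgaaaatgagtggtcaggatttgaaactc
Habp2: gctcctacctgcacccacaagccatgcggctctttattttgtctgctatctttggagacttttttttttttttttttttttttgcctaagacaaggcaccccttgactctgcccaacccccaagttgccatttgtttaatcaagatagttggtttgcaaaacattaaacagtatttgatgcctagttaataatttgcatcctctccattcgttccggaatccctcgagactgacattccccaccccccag
Tfec: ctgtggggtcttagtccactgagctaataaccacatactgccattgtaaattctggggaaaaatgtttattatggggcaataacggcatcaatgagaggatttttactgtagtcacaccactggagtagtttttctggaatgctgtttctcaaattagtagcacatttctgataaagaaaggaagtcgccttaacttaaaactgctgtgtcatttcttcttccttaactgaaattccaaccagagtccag
Both strands were searched for 4 motifs in 32851 promoter windows of the same length. The CTCF core CCANNAGNNGGC was found in 2.07% of all windows and the E-box CACGTG, which reads the same on both strands, in 6.02%. The GATA-type motif, spelled AGATAA, was found in 9.99%. The TATA-type motif, spelled TATAAA, was found in 12.4%. No match overlapped one of another motif. The Dpp4 window held the GATA-type motif at positions -32 to -27 and the TATA-type motif at -227 to -222, counted from the start. The internal Lgmn window held the E-box at -49 to -44 and the TATA-type motif on the other strand at -37 to -32. The windows of Habp2, Tfec, Myl4 and the upstream start of Lgmn held none of the 4 motifs as spelled. Other spellings were not searched, such as TGATAA, which occurs in the Tfec window, and AGATAG, which occurs in the Habp2 window. The absence of a match is thus no absence of a GATA-type site. The 4 windows shown had a GC content of 39.2% to 48% with 2 to 5 CpG, and those of Myl4 (63.6%, 23 CpG) and the upstream Lgmn start (60.4%, 13 CpG) were richer, against a median of 52.4% and 6 CpG over all windows.

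A rescue library held 6425179 to 28730435 counts and a truncation library 1907505 to 8845087. The NPC-WT replicates differed far more from each other than those of any other rescue group (chi-square per gene of 71.5 against 3.08 to 7.02), and ESC-Grb10 pA replicate 2 and ESC-E14 replicate 1 stood apart in the truncation lines, so results that change without a library are given without it. Chromosome 11 held 11.8% to 12.6% of autosomal and X counts in the 4 WT rescue libraries, 8.79% to 9.45% in the 4 ΔZF1 libraries and 8.29% to 9.01% in the 18 truncation libraries. Ctcf counts, which can include the rescue transgene and cannot show so short a deletion, were higher in ESC-ΔZF1 than in ESC-WT (log2 fold change 0.57, SE 0.09, adjusted p = 0.0161 by edgeR's quasi-likelihood F test) and in NPC-ΔZF1 than in NPC-WT (0.78, SE 0.09, adjusted p = 0.000666). Podxl was down-regulated in NPC-Podxl pA relative to NPC-E14 (log2 fold change -3.45, SE 0.15, edgeR adjusted p = 9.72e-15) and Grb10 in NPC-Grb10 pA (-3.86, SE 0.09, edgeR adjusted p = 4.92e-22).

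The NPC libraries were checked against markers of the cell type. Sox1, an early neural marker, was up-regulated in NPC-E14 relative to ESC-E14 (log2 fold change 4.01, edgeR), with means of 79.0 ± 4.84 and 4.70 ± 0.797 CPM (counts normalised to library size with TMM factors, SD, n = 3). In the rescue lines Sox1 was lower, at 19.4 ± 3.69 CPM in NPC-WT and 39.7 ± 0.884 in NPC-ΔZF1 (n = 2). Fabp7 was at 0 counts in all 8 rescue libraries, Hes5 was at 0 in NPC-WT, and the summed level of 14 neural progenitor markers was lower in NPCs (202 to 257 CPM in the rescue lines) than in ESCs (333 to 373 CPM). Most of that ESC sum was Sox2, which fell from 254 to 28.2 CPM in the WT rescue and from 240 to 49.4 CPM in the ΔZF1 rescue. Sox1 and Nes rose in both, Nes from 32.7 to 98.1 and from 21.9 to 54.4 CPM. The sum is thus no measure of the other markers. From ESC-E14 to NPC-E14, 5 of 10 tested markers rose and 2 fell, where 32.8% of all genes passed. Pluripotency markers summed to 737 to 1027 CPM in rescue NPCs against 6967 to 7728 CPM in rescue ESCs. Extraembryonic endoderm markers summed to 3385 to 4110 CPM in NPC-WT and 11317 to 11510 CPM in NPC-ΔZF1, and their levels are set beside the genes they move with.

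Dpp4 held 166 and 58 counts in NPC-WT and 2343 and 2198 in NPC-ΔZF1. These are 7.02 and 4.98 CPM against 82.4 and 80.7 CPM, a log2 fold change of 3.73 (SE 0.17), or 13.2-fold. In ESCs, Dpp4 stood at 38.8 and 46.8 CPM in ESC-WT and at 39.2 and 40.1 CPM in ESC-ΔZF1. The 2 NPC-ΔZF1 libraries were the highest of the rescue lines and the 2 NPC-WT libraries the lowest, with the ESC groups between them and overlapping each other.

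Lgmn counted 829 and 521 in NPC-WT and 7011 and 6682 in NPC-ΔZF1. This was 35.1 and 44.7 CPM against 247 and 245 CPM, a log2 fold change of 2.63 (SE 0.14), or 6.20-fold. The ESC libraries lay at 45.5 and 38.5 CPM in ESC-WT and 46.2 and 43.2 CPM in ESC-ΔZF1, so that ESC-WT, ESC-ΔZF1 and NPC-WT overlapped and only NPC-ΔZF1 stood apart among the rescue lines. Per kb of exon, Lgmn was the most abundant of the 6 in NPC-ΔZF1, at 106 CPM per kb against 12.9 for Dpp4, 4.07 for Habp2, 3.91 for Tfec, 0.520 for Myl4 and 0.507 for Rhbdl3.

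Within the rescue lines, Habp2 and Tfec were close to undetected outside NPC-ΔZF1. Habp2 held 3 and 2 counts in ESC-WT, 0 and 6 in ESC-ΔZF1, 13 and 5 in NPC-WT and 374 and 349 in NPC-ΔZF1. In NPCs this was 0.550 and 0.429 CPM in WT against 13.2 and 12.8 CPM in ΔZF1, a log2 fold change of 4.66 (SE 0.41), or 25.3-fold. Both NPC-ΔZF1 libraries lay above the other 6 rescue libraries, and NPC-WT overlapped ESC-WT and lay just above ESC-ΔZF1. Tfec held 2 and 8 counts in ESC-WT, 6 and 5 in ESC-ΔZF1, 21 and 12 in NPC-WT and 662 and 558 in NPC-ΔZF1. Its NPC levels were 0.888 and 1.03 CPM in WT and 23.3 and 20.5 CPM in ΔZF1, a log2 fold change of 4.53 (SE 0.22), or 23.1-fold. NPC-ΔZF1 was again highest, and NPC-WT lay above both ESC groups, which overlapped.

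Myl4 and Rhbdl3 showed the opposite order, with NPC-WT highest. Myl4 was at 10.4 and 17.0 CPM in NPC-WT (246 and 198 counts) and at 2.99 and 1.84 CPM in NPC-ΔZF1 (85 and 50 counts), a log2 fold change of -2.47 (SE 0.28), or 5.56-fold lower. In ESCs Myl4 lay at 6.56 and 6.58 CPM in WT and at 4.69 and 4.65 CPM in ΔZF1. Its 4 groups did not overlap, in the order NPC-WT, ESC-WT, ESC-ΔZF1 and NPC-ΔZF1. Rhbdl3 was at 11.3 and 15.6 CPM in NPC-WT (266 and 182 counts) and at 2.64 and 2.17 CPM in NPC-ΔZF1 (75 and 59 counts), a log2 fold change of -2.46 (SE 0.30), or 5.51-fold lower. NPC-WT stood apart at the top, while NPC-ΔZF1 lay within the range of ESC-WT (3.05 and 1.17 CPM) and above ESC-ΔZF1 (1.17 and 1.48 CPM).

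Of the 16641 genes tested in NPC-ΔZF1 against NPC-WT, 17.6% passed the cutoffs used throughout, an adjusted p of at most 0.05 with an absolute log2 fold change of 0.5 or more (7.19% higher and 10.5% lower). Nothing is read from where the 6 genes stand in this contrast, since it chose them. By size of change, Habp2 ranked 12, Tfec 13, Dpp4 34, Lgmn 107, Myl4 146 and Rhbdl3 148 among the genes tested. No threshold set the choice, so no genes just inside or outside it can be given. Leaving out any 1 NPC library kept every sign. Without NPC-WT replicate 1 the values of Dpp4 and Habp2 were 4.03 and 4.90.

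**Figure D1:**
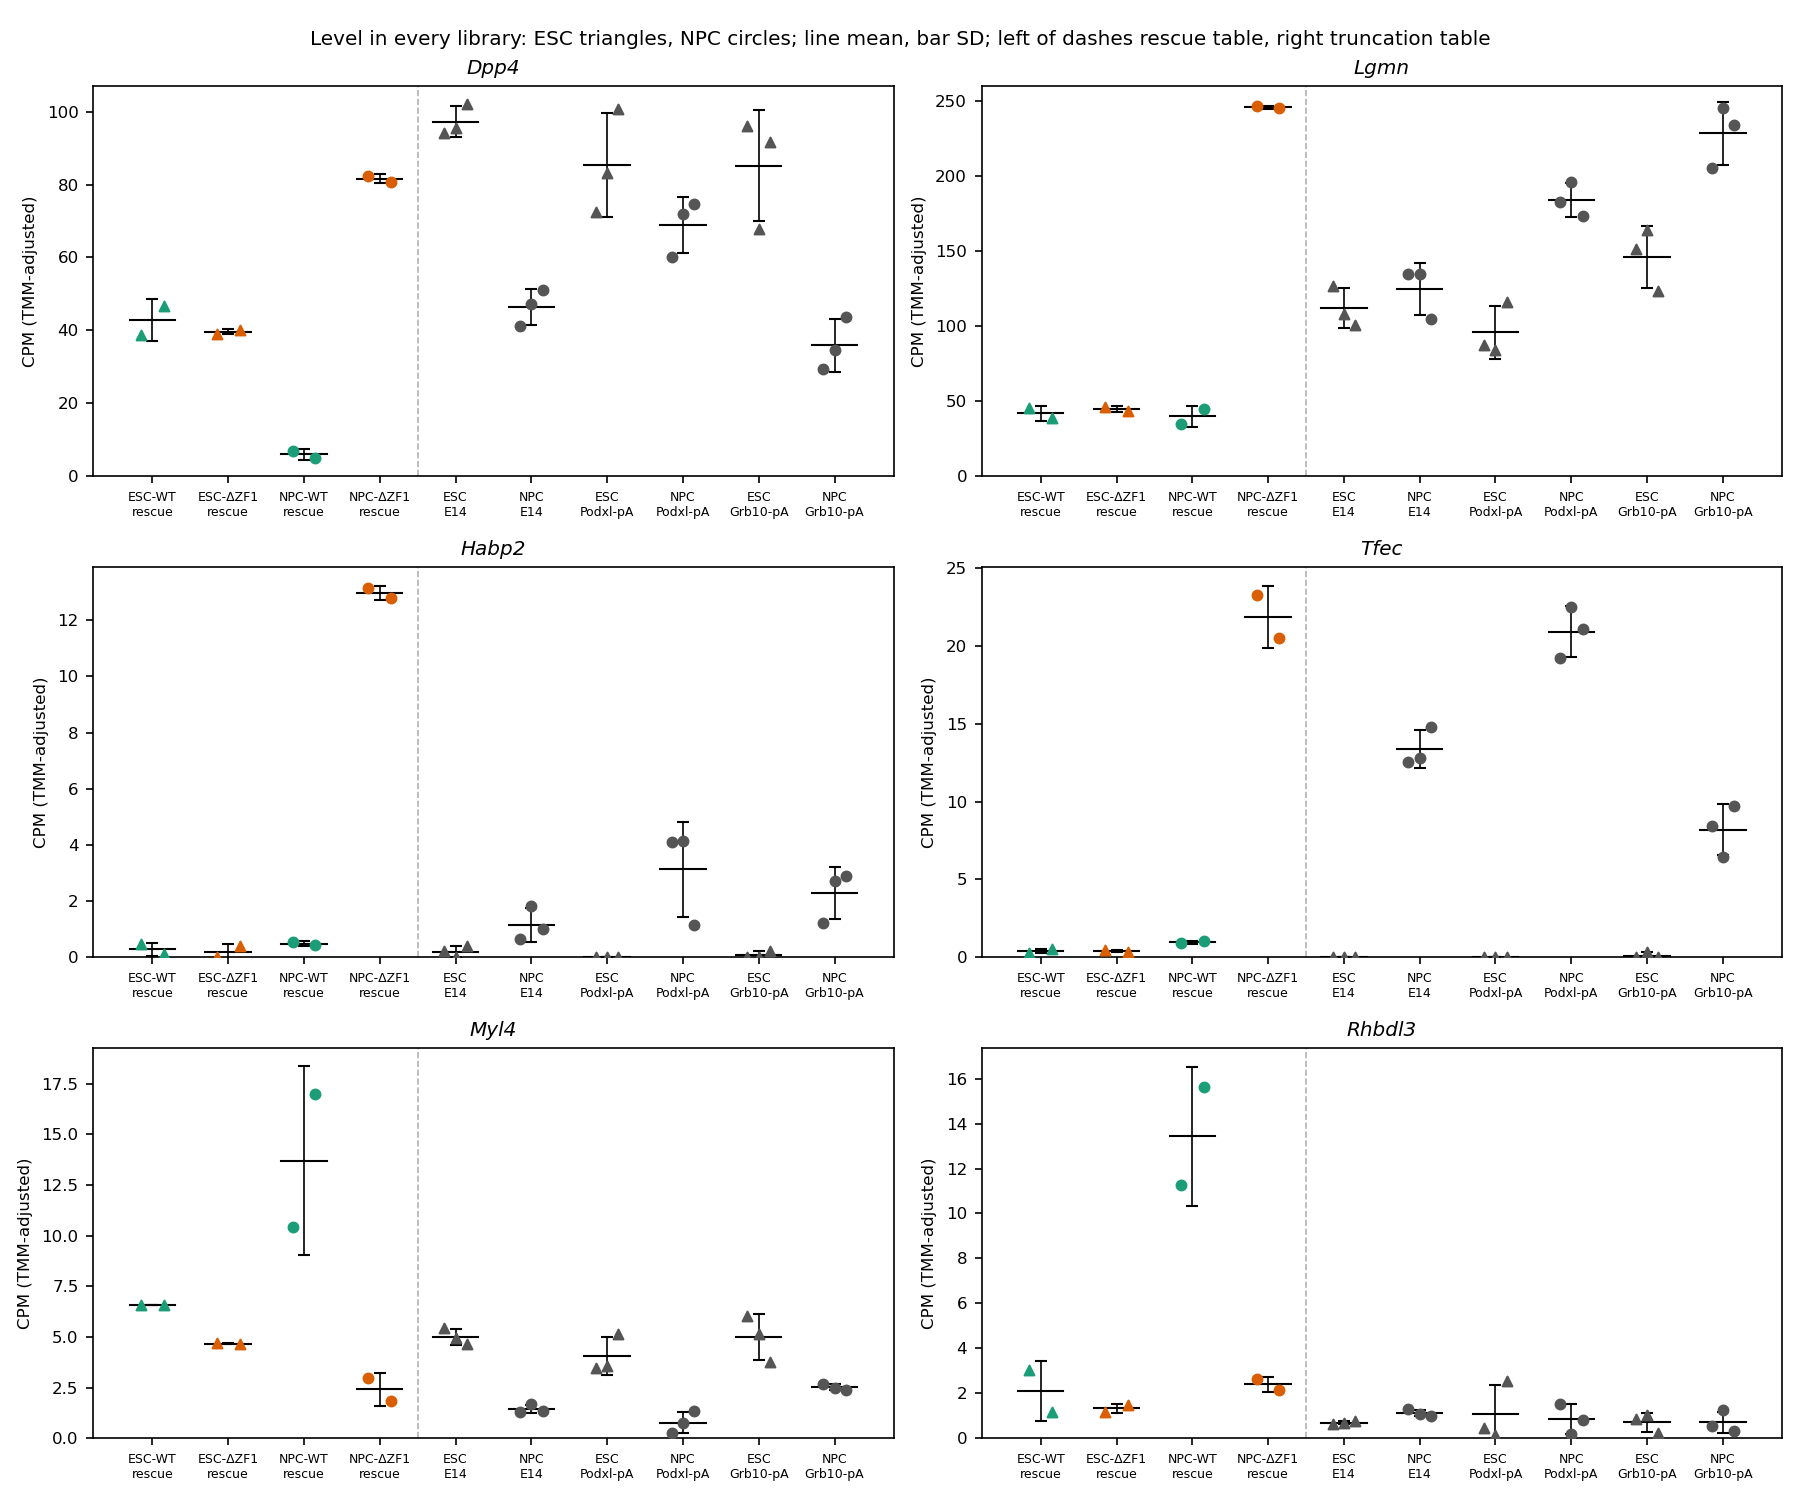
Level of each gene in every library, in TMM-adjusted CPM on a linear axis from 0 (bars that would pass below 0 are clipped). Triangles are ESC and circles NPC libraries, lines and bars are mean and SD, and the dashes separate the rescue lines (n = 2) from the truncation lines (n = 3), which were normalized apart. NPC-ΔZF1 (81.6 CPM) stood far above NPC-WT (6.0 CPM) for Dpp4, while for Myl4 and Rhbdl3 NPC-WT (13.7 and 13.4 CPM) stood above every other group.

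The effect of ΔZF1 in ESCs was not used to choose the genes, and it was tested. None of Dpp4, Lgmn, Myl4 and Rhbdl3 passed the cutoffs in ESC-ΔZF1 against ESC-WT by edgeR, where 3.61% of all genes tested did. The count was also 0 at an unadjusted p under 0.05 and by DESeq2. At so low a share, no call among so few genes says little. Dpp4 had a log2 fold change of -0.12 (SE 0.15, edgeR adjusted p = 0.770) and Lgmn of 0.10 (SE 0.14, edgeR adjusted p = 0.800). Habp2 (-0.13, SE 1.06, edgeR adjusted p = 0.972) and Tfec (-0.23, SE 0.50, edgeR adjusted p = 0.903) held 0 to 8 counts per ESC library, so their errors were wide. Such counts leave little room for a call, so these genes are left out of that count. Myl4 was lower in both ESC-ΔZF1 libraries than in both ESC-WT libraries but missed the cutoffs (-0.49, SE 0.31, edgeR adjusted p = 0.465), as did Rhbdl3 (-0.46, SE 0.47, edgeR adjusted p = 0.697). Since the NPC values chose the genes, the difference between the NPC and ESC effects is only described. It was 3.85 (SE 0.23) for Dpp4, 2.53 (SE 0.20) for Lgmn, 4.79 (SE 1.34) for Habp2, 4.76 (SE 0.62) for Tfec, -1.98 (SE 0.42) for Myl4 and -2.01 (SE 0.56) for Rhbdl3, on the log2 scale.

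Differentiation of the parental and truncation lines shows how the genes change from ESC to NPC without a degron or a rescue, in libraries the choice did not use. Habp2 and Tfec held 0 to 1 count per ESC library in these lines and passed the filter on low counts only through the NPC groups. Their direction was thus fixed by the filter, so they get no p from ESC to NPC and are not counted with the others. Of Dpp4, Lgmn and Myl4, 2 passed the cutoffs in E14 cells, where 32.8% of all genes did. Tfec held 0 counts in the 3 ESC-E14 libraries and 39, 84 and 44 in NPC-E14, or 12.6, 12.8 and 14.8 CPM, at least 57.4-fold higher when the ESC group is set at 3 counts. Habp2 rose from 1, 0 and 1 counts to 2, 12 and 3, a ratio of 8.77 (exact 95% counting interval 2.08 to 78.2). That ratio rested largely on NPC-E14 replicate 2, which held the 12 counts.

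Dpp4 went the other way in E14 cells, from 94.1, 95.5 and 102 CPM to 41.3, 47.2 and 51.0 CPM, a log2 fold change of -1.06 (SE 0.14, edgeR adjusted p = 6.11e-07) with no overlap. Myl4 also fell, from 5.43, 4.95 and 4.64 CPM to 1.29, 1.67 and 1.34 CPM (-1.74, SE 0.35, edgeR adjusted p = 0.000175). Lgmn stood at 127, 108 and 101 CPM in ESC-E14 and at 135, 135 and 105 CPM in NPC-E14, with overlap and no call (0.16, SE 0.12, edgeR adjusted p = 0.297). Rhbdl3 held 2 to 4 counts in ESC-E14 and 3 to 7 in NPC-E14 and was not tested.

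In the Podxl pA line 2 of the same 3 genes passed from ESC to NPC (31.8% of all genes). Lgmn rose from 87.8, 83.9 and 116 CPM to 183, 196 and 173 CPM (log2 fold change 0.98, SE 0.12, edgeR adjusted p = 1.8e-07). Tfec rose from 0 counts to 75, 120 and 127, at least 89.4-fold, and Habp2 from 0 counts to 16, 22 and 7, at least 12.5-fold. Myl4 was down-regulated (-2.14, SE 0.39, edgeR adjusted p = 6.41e-05), and Dpp4 (-0.27, SE 0.13, edgeR adjusted p = 0.0979) missed the cutoffs with overlapping groups.

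In the Grb10 pA line all 3 passed (34.6% of all genes). Tfec rose from 1 count over 3 libraries to 75, 26 and 57 counts, a ratio of 98.9 (exact 95% counting interval 17.5 to 3931), and Habp2 from 1 count to 11, 11 and 17, a ratio of 24.4 (4.13 to 989). Lgmn rose by 0.65 (SE 0.11, edgeR adjusted p = 3.63e-05), whereas Dpp4 fell by 1.27 (SE 0.14, edgeR adjusted p = 2.2e-08) and Myl4 fell by 0.97 (SE 0.29, edgeR adjusted p = 0.00778) on the log2 scale. The call of Myl4 was lost without ESC-Grb10 pA replicate 1 (edgeR adjusted p = 0.0707). With the counting floors used, intervals and bounds cover counting error only.

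The rescue lines can be set beside these values, without a test, since their NPC libraries chose the genes. From ESC to NPC, Dpp4 was 6.99-fold lower in the WT rescue and 2.06-fold higher in the ΔZF1 rescue. Tfec was 2.06-fold higher in the WT rescue and 55.6-fold higher in the ΔZF1 rescue, and Habp2 was 2.16-fold and 59.8-fold higher. Lgmn was 1.05-fold lower in the WT rescue and 5.50-fold higher in the ΔZF1 rescue. Myl4 was 2.05-fold higher in the WT rescue and 1.93-fold lower in the ΔZF1 rescue. Rhbdl3 was 7.23-fold higher in the WT rescue and 1.80-fold higher in the ΔZF1 rescue. For Myl4, the ΔZF1 rescue thus had the sign of the E14, Podxl pA and Grb10 pA lines and the WT rescue had the opposite sign, and for Dpp4 the WT rescue had the sign of those 3 lines and the ΔZF1 rescue the opposite.

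**Figure D2:**
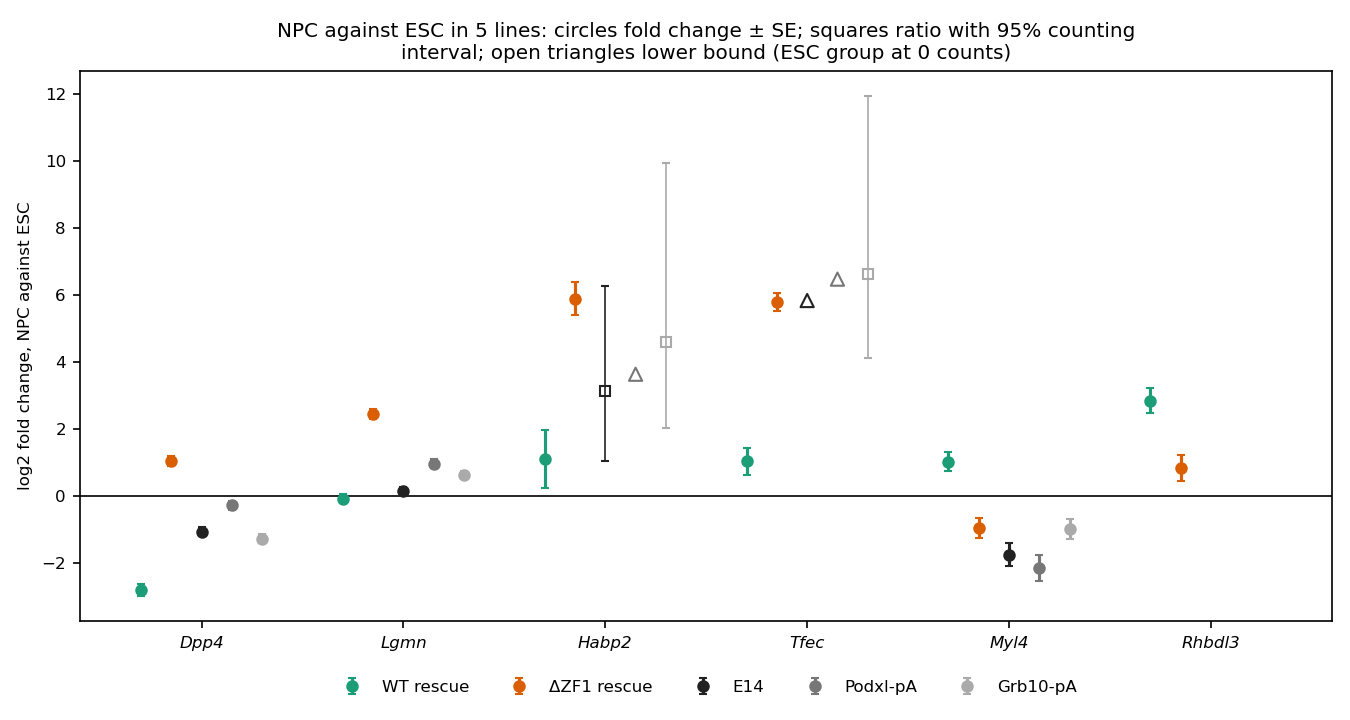
Log2 fold change from ESC to NPC for each gene in 5 lines, on a linear log2 axis. Circles are edgeR estimates with SE, squares are count ratios with 95% counting intervals, and open triangles are lower bounds where the ESC group held 0 counts. Tfec was at least 57.4-fold higher in NPC-E14 and 2.06-fold higher in the WT rescue.

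Levels in parental NPCs can be read beside those of the rescue NPCs, with the limit that the tables were normalized apart. Tfec averaged 13.4 ± 1.21 CPM in NPC-E14 (SD, n = 3), between 0.959 ± 0.100 in NPC-WT and 21.9 ± 1.99 in NPC-ΔZF1 (SD, n = 2). Dpp4 averaged 46.5 ± 4.92 CPM in NPC-E14, between 6.0 ± 1.45 in NPC-WT and 81.6 ± 1.24 in NPC-ΔZF1. Lgmn, at 125 ± 17.2 CPM, also lay between 39.9 ± 6.82 and 246 ± 0.993. In each of these the parental level lay outside the range of both rescue groups. Habp2 averaged 1.16 ± 0.606 CPM in NPC-E14, nearer to NPC-WT (0.490 ± 0.0855) than to NPC-ΔZF1 (13.0 ± 0.246). Myl4 (1.44 ± 0.209 CPM) and Rhbdl3 (1.12 ± 0.149 CPM) were nearer to NPC-ΔZF1 (2.41 ± 0.817 and 2.40 ± 0.335) than to NPC-WT (13.7 ± 4.66 and 13.4 ± 3.09). The ESC levels of the 2 experiments also differed, with Dpp4 at 97.2 ± 4.30 CPM in ESC-E14 against 42.8 ± 5.69 in ESC-WT, and Lgmn at 112 ± 13.4 against 42.0 ± 4.90.

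Some of the genes differed between the truncation lines and E14 in NPCs. The Grb10 pA line also differed from E14 elsewhere, with a median log2 fold change of -0.48 over 731 genes of chromosome 8, which holds none of the 6 genes, and with lower Ctcf (-0.44, SE 0.07, edgeR adjusted p = 5.01e-05 in NPCs and -0.64, SE 0.07, edgeR adjusted p = 1.03e-06 in ESCs). The chromosome 8 median was -0.49 in ESCs, and whether the lower Ctcf stands apart from the chromosome 8 shift was not tested. The part of these differences in the values of the 6 genes was not tested either. In NPC-Podxl pA against NPC-E14 only Lgmn, of 5 genes with a value, passed the cutoffs (0.55% of all genes did), at 183, 196 and 173 CPM against 135, 135 and 105 CPM (log2 fold change 0.55, SE 0.12, edgeR adjusted p = 0.0166). The call was lost without NPC-Podxl pA replicate 1 (edgeR adjusted p = 0.0652), NPC-Podxl pA replicate 2 (edgeR adjusted p = 0.129) or NPC-E14 replicate 3 (edgeR adjusted p = 0.168). Dpp4 (60.1, 71.8 and 74.7 CPM against 41.3, 47.2 and 51.0) and Tfec (19.2, 22.5 and 21.1 CPM against 12.6, 12.8 and 14.8) were higher in every mutant library without passing (0.57, SE 0.14, edgeR adjusted p = 0.0568, and 0.66, SE 0.18, edgeR adjusted p = 0.129). DESeq2 passed Dpp4 as well (adjusted p = 0.0221). Habp2, among the 5, held 2, 12 and 3 counts in NPC-E14 and passed the filter on low counts only through mutant NPC libraries. The filter thus favoured a higher value in the mutants, and its direction is no test.

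In NPC-Grb10 pA 2 of the 5 genes passed (16.5% of all genes). Lgmn was at 205, 246 and 235 CPM, above every NPC-E14 library (log2 fold change 0.86, SE 0.12, edgeR adjusted p = 3.43e-06). Tfec was at 8.40, 6.45 and 9.71 CPM, below every NPC-E14 library (-0.67, SE 0.20, edgeR adjusted p = 0.0149), and this call was lost without NPC-Grb10 pA replicate 2 (edgeR adjusted p = 0.0580) or NPC-E14 replicate 3 (edgeR adjusted p = 0.0555). Dpp4 (29.4, 34.8 and 43.8 CPM) missed the cutoffs with overlapping groups (-0.38, SE 0.15, edgeR adjusted p = 0.0543), and passed without NPC-Grb10 pA replicate 3 (-0.56, edgeR adjusted p = 0.0111). Myl4 was at 2.69, 2.48 and 2.38 CPM, above every NPC-E14 library (0.76, SE 0.37, edgeR adjusted p = 0.132). Habp2 overlapped (0.68, SE 0.55, edgeR adjusted p = 0.383), and the limit set by the filter holds for it here too. Both mutants share the NPC-E14 libraries as controls, so their values are not independent of each other.

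In ESCs none of Dpp4, Lgmn and Myl4 passed the cutoffs against E14 by edgeR or DESeq2, in Podxl pA (0.339% of all genes) or in Grb10 pA (9.09%), and 1 of these 3 genes was at an unadjusted p under 0.05 in each comparison. Lgmn in ESC-Grb10 pA was closest, at 151, 164 and 123 CPM against 127, 108 and 101 (log2 fold change 0.37, SE 0.12, edgeR adjusted p = 0.0346, below the fold cutoff). Habp2 and Tfec were at 0 to 1 count per ESC library in all 3 lines, so no fold is given. The difference between the NPC and ESC effects was tested for the same 3 genes and passed for none by edgeR, with 2 at an unadjusted p under 0.05 for Podxl pA (0.098% of all genes passed) and 1 for Grb10 pA (5.9%). The largest was that of Lgmn for Podxl pA (0.82, SE 0.17, edgeR adjusted p = 0.0535).

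Myl4 and Rhbdl3 lie on a chromosome that is shifted as a whole between the rescue genotypes. The median log2 fold change of the 1322 chromosome 11 genes tested was -0.57 in NPC-ΔZF1 against NPC-WT and -0.46 in ESCs. Relative to that median, Myl4 was at -1.91 and Rhbdl3 at -1.90 in NPCs, and 7 and 8 chromosome 11 genes, respectively, had lower values. With the chromosome 11 median in the offsets of the fit, the ESC value of Myl4 moved from -0.49 to -0.03. The offset shifts every gene of that chromosome by its median, so this move is arithmetic and no test. The levels of Myl4 and Rhbdl3 in the WT rescue NPCs and the chromosome 11 share of that line thus stood together on the high side of all NPC groups, and the part of the chromosome in the result was not tested.

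**Figure D3:**
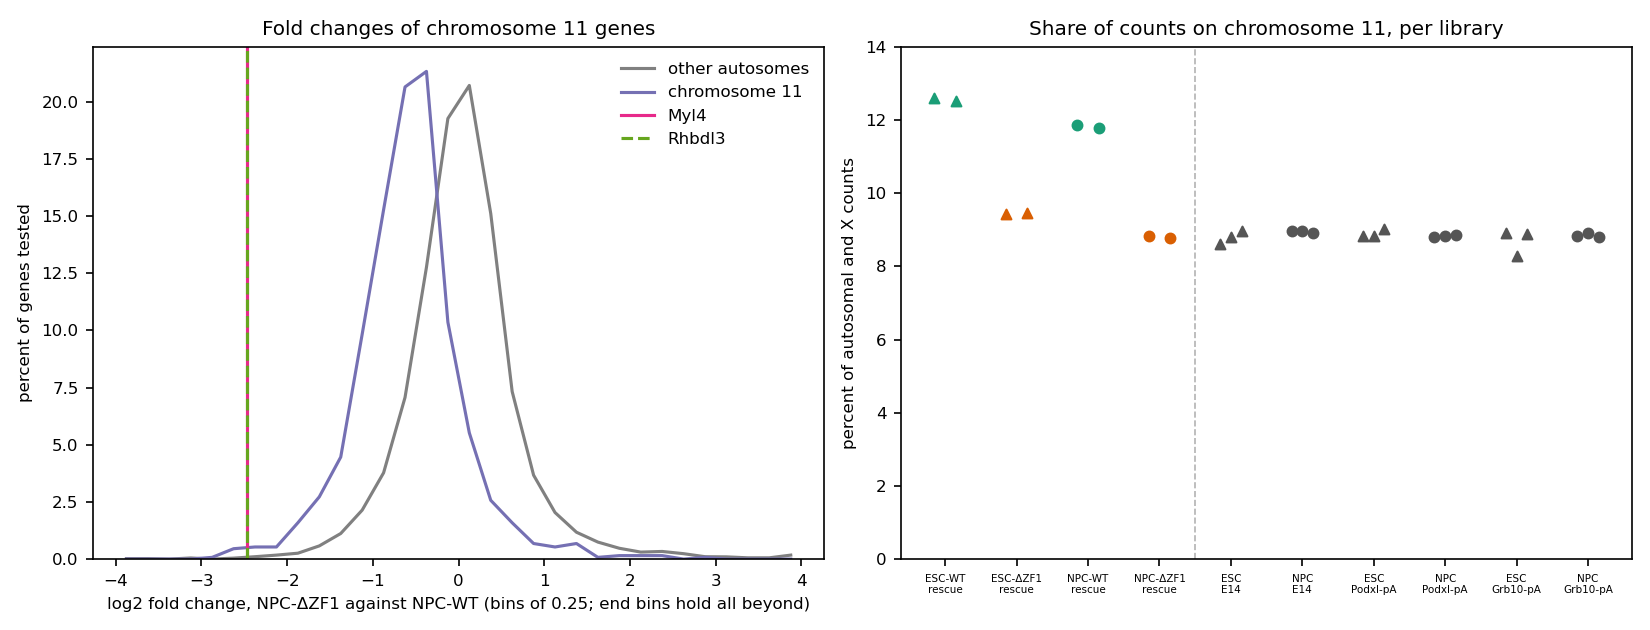
Left, percent of tested genes per bin of log2 fold change in NPC-ΔZF1 against NPC-WT, for chromosome 11 and the other autosomes, with Myl4 and Rhbdl3 as vertical lines that nearly coincide (-2.47 and -2.46). Right, percent of autosomal and X counts on chromosome 11 in each library, 11.8% to 12.6% in the WT rescue and 8.29% to 9.45% elsewhere.

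Genes within 500 kb of each of the 6 were counted, where 7.19% of all genes tested rose and 10.5% fell in NPC-ΔZF1. Within 500 kb of Dpp4, 3 genes were tested, Gca, Ifih1 and Kcnh7, and all 3 were down-regulated in NPC-ΔZF1 while Dpp4 was higher. Ifih1, the nearest of them and an RNA sensor, had a log2 fold change of -1.81 (SE 0.47, edgeR adjusted p = 0.0266), and Psmd14 on the other side had 0.25 (SE 0.10, edgeR adjusted p = 0.106). Around Lgmn, 2 of 16 genes (Gon7 and Tmem251) were up-regulated, and its nearest neighbours Rin3 (-0.42) and Golga5 (0.05) did not pass. None of 7 genes around Habp2, among them Tcf7l2 (0.43), and none of 3 around Tfec passed. The nearest tested genes to Tfec were Tes (0.12) and Mdfic (-0.28). On chromosome 11, 43.3% of the genes tested fell, and the counts around Myl4 and Rhbdl3 were not above that share. Around Myl4, Itgb3 and Kansl1 were down-regulated among 5 genes, Itgb3, an integrin subunit, at -1.09 (SE 0.16, edgeR adjusted p = 0.00169), and Cdc27, which lies 43 bp away, had -0.36 (SE 0.21). Around Rhbdl3, 3 of 15 (Adap2, Myo1d and Rnf135) were down-regulated, while Rhot1 (-0.40) and 5730455P16Rik (-0.46) did not pass.

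The genes whose pattern over the 4 rescue group means was most like that of each member were found by the root mean square difference of centred log2 CPM, over 8 libraries. For Tfec they were Ttr (0.31), Srgn (0.32) and Spink1 (0.38), and for Habp2 the same 3 at 0.44 (Srgn), 0.46 (Spink1) and 0.48 (Ttr). Ttr encodes transthyretin, Srgn a proteoglycan core protein and Spink1 a secreted protease inhibitor. Srgn was at 1.49, 1.72, 3.81 and 44.9 CPM in ESC-WT, ESC-ΔZF1 and then the NPCs of WT and ΔZF1, and was up-regulated in NPC-E14 against ESC-E14 (log2 fold change 3.89). For Dpp4 the nearest were Hnf4a (0.31), a hepatocyte and visceral endoderm factor, Fgf3 (0.36) and Gm48931 (0.43). Lgmn was nearest to Fgf8 and Bmp6, which encode signalling ligands, and Gm21542 (each 0.19). Myl4 was nearest to Slfn10-ps (0.19), Cavin1 (0.25) and Ky (0.25), and Rhbdl3 to Mycbpap (0.02), Rhox9 (0.18) and Mfsd6l (0.20). Slfn10-ps, Cavin1, Mycbpap and Mfsd6l lie on chromosome 11, as Myl4 and Rhbdl3 do. That chromosome holds 1322 of the 16641 genes tested and is shifted as a whole between the rescue genotypes. Mycbpap had group means of 0.14 to 2.09 CPM and Mfsd6l of 0.04 to 1.51 CPM, so their distances rest on few counts. The group means include the NPC values that chose the members, so all these likenesses are only a description.

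Markers of extraembryonic endoderm were higher in NPC-ΔZF1 than in NPC-WT, as Dpp4, Lgmn, Habp2 and Tfec were. Of 29 markers, 27 were tested in NPC-ΔZF1 against NPC-WT, and 23 rose and none fell (median log2 fold change 2.20, against -0.00262 over all genes), a count that was 20 to 23 when any 1 NPC library was left out. Cubn, an endocytic receptor of visceral endoderm, rose from 83.5 to 1022 CPM (log2 fold change 3.61, SE 0.45, edgeR adjusted p = 0.000816). Sox17, an endoderm transcription factor, rose from 5.15 to 47.1 CPM (3.16, SE 0.22, edgeR adjusted p = 3.32e-05). Apob (3.80, SE 0.20) and Hnf4a (3.96, SE 0.32) rose too. In ESC-ΔZF1 3 of the 27 rose (Sox7, Apoe and Lamc1), where 3.61% of all genes passed. From ESC-E14 to NPC-E14, where 32.8% of all genes passed, 20 of 24 tested rose and Nid1 fell. Markers near 0 in ESCs, such as Foxa2 (0.114 CPM in ESC-E14 and 6.97 in NPC-E14), could pass the filter only through NPC groups. The direction of such markers was thus fixed by the filter and is no test. The summed level went from 1285 to 1351 CPM in ESC-E14 to 2687 to 3403 CPM in NPC-E14. In the same comparison Dpp4 fell and Lgmn did not pass, while Tfec and Habp2 rose, a direction fixed by the filter. The sum was 4253 to 4452 CPM in NPC-Podxl pA and 2829 to 3269 CPM in NPC-Grb10 pA. It was thus above every NPC-E14 library in Podxl pA, where Dpp4, Lgmn and Tfec were too. In Grb10 pA the sum overlapped NPC-E14, while Lgmn was higher and Tfec lower than in NPC-E14. The markers Col4a1 and Col4a2 lie on chromosome 8, which had a median log2 fold change of -0.48 in NPC-Grb10 pA against NPC-E14. The part of that shift in the sum was not tested. Abundant genes weigh most in these sums, such as Lrp2 (906 CPM) and Sparc (554 CPM) in NPC-WT, so a sum is no measure of single factors. Gata6 (9.19 CPM) and Foxa2 (2.60) were lower in NPC-WT than in NPC-E14 (49.5 and 6.97), in tables normalized apart. Sox17 was at 5.15 and 8.15 CPM, with overlap. The other markers were not compared in this way. In bulk RNA, more cells of a type and more RNA per cell cannot be told apart, and the part of these markers in the levels of Dpp4, Lgmn, Habp2 and Tfec was not tested.

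Other cell types gave smaller values. Of 10 neural progenitor markers tested, 4 rose in NPC-ΔZF1 (Sox1 1.05, Cdh2 1.00, Sox2 0.82 and Zfp521 0.81) and Nes fell (-0.85). With NPC-ΔZF1 replicate 1 or replicate 2 left out, 2 rose and none fell, and with either NPC-WT library left out 6 rose. Of 12 pluripotency markers 2 fell (Klf2 -1.16 and Dppa3 -0.92), and of 10 mesoderm and heart markers 3 rose (Eomes 1.15, Meox1 1.03, Tcf15 1.01) and 2 fell (Hand1 -1.15 and Kdr -0.99). Without NPC-WT replicate 1, 4 pluripotency markers fell, without NPC-WT replicate 2, 4 rose and 2 fell, and with NPC-ΔZF1 replicate 1 or replicate 2 left out 1 fell and no mesoderm and heart marker fell. Of 4 neuron markers Stmn2 rose (1.11) and Tubb3 fell (-0.51), the latter not without NPC-WT replicate 2, NPC-ΔZF1 replicate 1 or NPC-ΔZF1 replicate 2. Macrophage markers, of interest since Tfec is a macrophage factor, summed to 5.32 to 5.45 CPM in NPC-ΔZF1 and 7.29 to 8.33 CPM in NPC-WT, and Ptprc and Adgre1 were at 0 counts in both. Cd68, on chromosome 11, fell (-0.78), though not without NPC-WT replicate 1 or with either NPC-ΔZF1 library left out. Pigment cell markers summed to 1.25 to 2.25 CPM in NPC-ΔZF1, with Tyr, Dct and Tyrp1 at 0 counts, and neither of 2 tested passed by edgeR or DESeq2 or at an unadjusted p under 0.05.

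Genes that work with the 6 were counted in 8 lists of 120 genes, none of them a member, of which 89 were tested in NPC-ΔZF1 against NPC-WT. In all, 18 rose and 16 fell, which is 38.2% of those tested, against 17.6% of all genes. Without NPC-ΔZF1 replicate 1 the count of 34 became 15 (16.9%, against 5.39% of all genes in that fit), and without NPC-ΔZF1 replicate 2 it also became 15 (16.9%, against 5.64%). The lists were chosen with earlier results of these data known, so these shares are a description. Among relatives of Dpp4, 1 of 6 passed, Dpp7, a lysosomal dipeptidase (log2 fold change 0.89, SE 0.16, edgeR adjusted p = 0.00457), which did not pass with NPC-ΔZF1 replicate 1 or replicate 2 left out. Without NPC-WT replicate 1, 2 passed. None of 5 tested DPP4 substrates and partners passed by edgeR or DESeq2, with 3 at an unadjusted p under 0.05, and 1 fell without NPC-WT replicate 1 or replicate 2.

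Lysosomal proteases and their inhibitors, the company of Lgmn, rose in 7 of 14 cases and fell in none (median 0.52), and in 4 without NPC-ΔZF1 replicate 1. The cathepsin genes Ctsc (9.23 to 28.0 CPM, log2 fold change 1.57, SE 0.19) and Ctsl (153 to 444 CPM, 1.54, SE 0.10) and the cathepsin inhibitor gene Cst3 (28.0 to 67.4 CPM, 1.26, SE 0.12) rose, as did Ctsz (0.78, SE 0.15), Ctsa, Lamp1 and Tpp1. From ESC-E14 to NPC-E14, where 32.8% of all genes passed, 3 of 13 rose (Ctsh, Ctsl and Ctsz) and 4 fell (Ctsb, Ctsc, Cstb and Lamp2).

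Among plasma serine proteases and their inhibitors, the class of Habp2, 3 of 8 rose and 2 fell. Plat, tissue plasminogen activator, rose from 10.8 to 52.3 CPM (log2 fold change 2.27, SE 0.17, edgeR adjusted p = 5.64e-05). Serpine2, which encodes a serine protease inhibitor, rose by 0.52 (SE 0.14). Plau, urokinase, fell. Serpinf2 rose from 0.213 to 0.864 CPM, but it passed the filter on low counts only through NPC-ΔZF1, so its rise is no test. With NPC-ΔZF1 replicate 1 or replicate 2 left out, 1 rose and 1 fell. Of 8 hyaluronan genes Has2, a hyaluronan synthase, and Cemip rose. Cemip, which takes part in hyaluronan breakdown, rose from 5.88 to 37.2 CPM (2.65, SE 0.15, edgeR adjusted p = 9.46e-06) and was also higher in ESC-ΔZF1 (1.55). Without NPC-WT replicate 1, 4 hyaluronan genes rose, and without NPC-WT replicate 2, 3 rose and 1 fell.

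Of 15 genes of the MiT/TFE family and its targets, 3 rose and 1 fell. The lysosomal enzyme genes Neu1 (0.96, SE 0.18) and Hexa (0.87, SE 0.12) and the proton pump gene Atp6v1h (0.59, SE 0.11) rose. Sqstm1, an autophagy receptor gene on chromosome 11, fell (-0.98, SE 0.12), and it was also lower in ESC-ΔZF1 (-0.59). With NPC-ΔZF1 replicate 1 or replicate 2 left out 1 rose, without NPC-WT replicate 1, 3 fell, and with the chromosome 11 median in the offsets none fell.

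Of 21 myosin light chain and sarcomere genes, the company of Myl4, 8 fell and Ttn rose (0.83, SE 0.26), with a median of -0.69. Myh10, a non-muscle myosin heavy chain gene on chromosome 11, fell from 1055 to 449 CPM (-1.23, SE 0.11), Myh6 from 8.58 to 3.92 CPM (-1.10, SE 0.23) and Myl6b from 5.63 to 2.75 CPM (-1.01, SE 0.21). In ESC-ΔZF1 against ESC-WT, 2 of the 21 rose, among them Myl9 (1.28), and 3 fell, among them Myh6 (-2.05). In NPC-ΔZF1, Tnnt1, Actc1, Myl9, Tpm1 and Myh9 fell too. With NPC-ΔZF1 replicate 1 or replicate 2 left out 1 fell, without NPC-WT replicate 1, 2 rose and 12 fell, and Ttn did not pass without NPC-ΔZF1 replicate 2 or with the chromosome 11 median in the offsets. Of 12 rhomboid and EGF receptor ligand genes, 5 fell and 1 rose (Adam10, a sheddase). In ESC-ΔZF1 against ESC-WT, where 3.61% of all genes passed, 1 of the 12 passed, Tgfa, which fell (-1.98). In NPC-ΔZF1, the ligand gene Tgfa (-1.52, SE 0.19), the receptor gene Egfr (-1.49, SE 0.14), Rhbdf1 (-1.05, SE 0.18), Rhbdd3 (-0.92, SE 0.16) and Rhbdf2 (-0.89, SE 0.15) fell. All of these but Tgfa lie on chromosome 11. With the chromosome 11 median in the offsets 2 fell, with NPC-ΔZF1 replicate 1 or replicate 2 left out 3 fell and none rose, and without NPC-WT replicate 2 none rose.

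**Figure D4:**
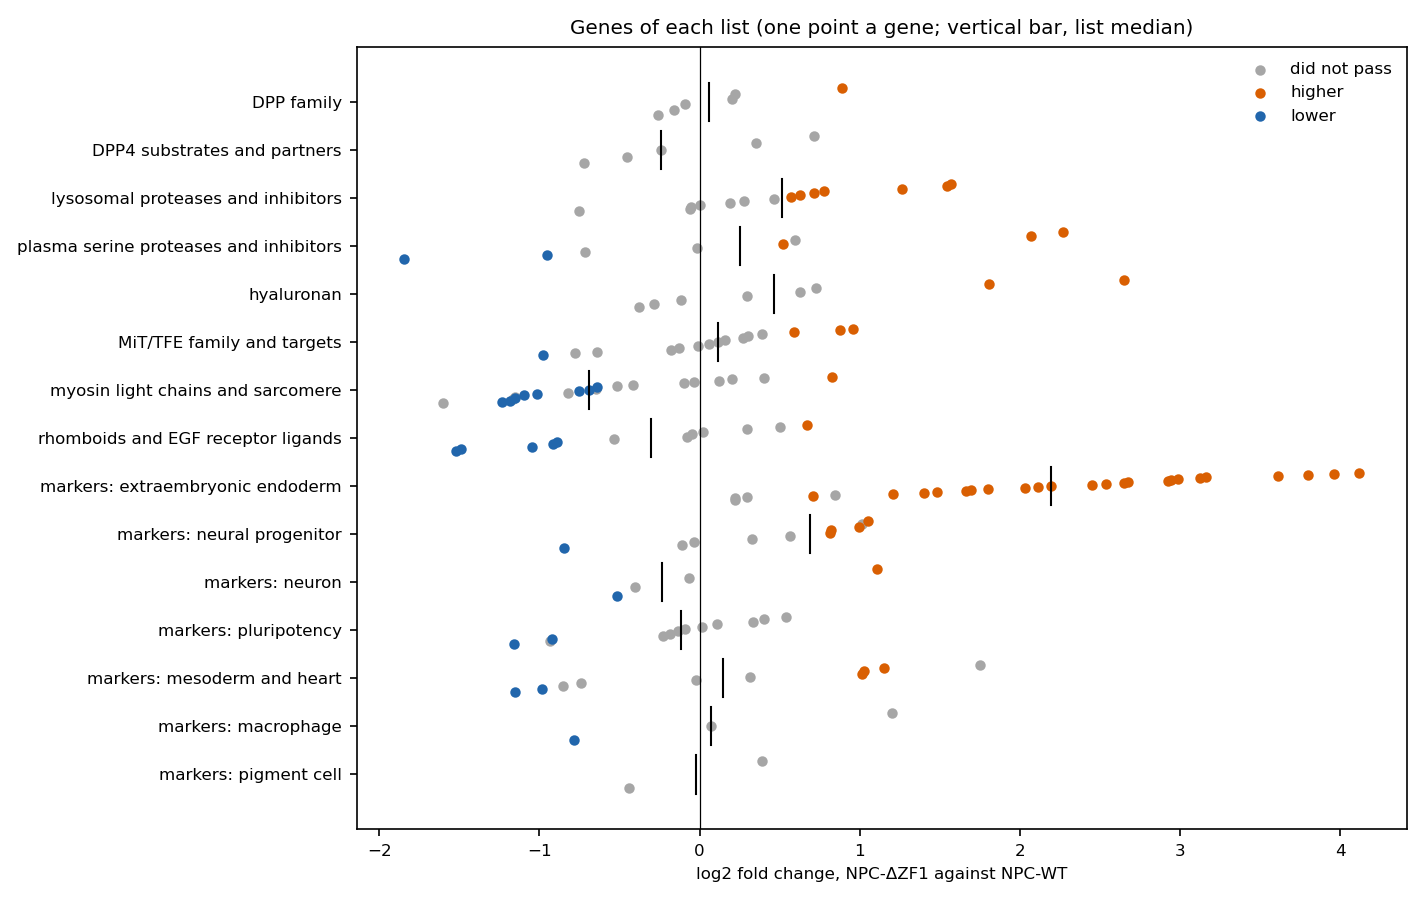
Log2 fold change in NPC-ΔZF1 against NPC-WT of each tested gene of the 8 lists and 7 marker lists, 1 point a gene, colored by whether it passed the cutoffs as higher or lower, with a vertical bar at the list median. Extraembryonic endoderm markers had a median of 2.20 and myosin and sarcomere genes of -0.69.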

How the data were processed

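RNA-seq counts of 26 libraries were analysed. The authors used STAR with its defaults against mm10, then featureCounts without strand, within the sns pipeline. What they deposited are raw counts, whole numbers per gene symbol. The annotation used for counting is not given in the sources used here. The truncation table held 3 columns that match no sample and were not used. Of 55291 symbols in each table, 96.2% matched 1 gene of GENCODE M21. Both tables were fitted separately in R 4.3.3 with edgeR 4.0.16, using TMM, filterByExpr, 1 mean per group and the quasi-likelihood F test. The cutoffs were 0.05 for the Benjamini-Hochberg adjusted p and 0.5 for the absolute log2 fold change. The SE is the log2 fold change divided by the square root of F. CPM were taken from the TMM-adjusted library totals. A count of 0 was taken to allow 3 counts over the group. The members and gene lists were chosen with earlier results of these data known. Named genes were the 6 members, up to 4 genes per list with the largest change among those that passed and averaged 50 or more normalized counts, the nearest tested gene on each side of a member, the 3 genes nearest in pattern, and Ctcf, Podxl and Grb10. Some genes that the rule names are not reported here. Genes outside that rule were named after their values were seen. These are the other genes within 500 kb that passed, the markers at 0 counts, the overlapping genes, and list genes given beyond the 4 of a list. Alternatives were DESeq2 1.42.0, RLE normalization, no filter, a minimum of 10 counts per library, fits restricted to the groups compared, a replicate term, an adjusted p of 0.01, leaving out each library, and the chromosome 11 median as an offset. Their use on the list counts was added after the data were seen.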

Additional observations from a re-analysis of the deposited data

How the results depend on the processing

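Every count of members in ESC-ΔZF1 against ESC-WT and in the ESC truncation comparisons stayed at 0 under all alternatives run. Habp2 and Tfec, with few or no counts in ESCs, could add little to these counts. With at least 10 counts in every library of the groups compared, which removes Habp2 and Tfec from the genes tested and in E14 and Podxl pA Myl4 too, the counts from ESC to NPC, with Habp2 and Tfec included, fell from 4 to 1 in E14, from 4 to 1 in Podxl pA and from 5 to 3 in Grb10 pA. Leaving out 1 library gave 3 to 4, 4 to 4 and 4 to 5. The direction of Habp2 and Tfec was fixed by the filter, so their part in these counts is no test. For NPC-Podxl pA against NPC-E14 the count of 1 became 2 with DESeq2, with no filter and with a replicate block, 3 when no other groups were fitted, 0 at an adjusted p of 0.01, and 0 to 1 with 1 library left out. For NPC-Grb10 pA the count of 2 became 1 at an adjusted p of 0.01 and 1 to 3 with 1 library left out. The list genes that passed in NPC-ΔZF1 against NPC-WT were 34, 21 with only the NPC libraries fitted, and 15 to 46 with 1 library left out. Where not named, the cause was not tested. Left-out libraries leave 1 sample in a rescue group, which is assumed to vary like the others.

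Uncalled values that changed sign without 1 library were, in ESC-ΔZF1 against ESC-WT, Dpp4 (range -0.24 to 0.0466), Lgmn (-0.00997 to 0.21) and Tfec (-0.42 to 0.35), each without ESC-WT replicate 2, Habp2 (-5.11 to 0.79) without ESC-WT replicate 1 or ESC-ΔZF1 replicate 1, and Rhbdl3 (-1.18 to 0.18) without ESC-WT replicate 1. The lowest Habp2 value was fitted against a group at 0 counts and is no bound. In ESC-Grb10 pA against ESC-E14, Myl4 (-0.21 to 0.17) changed sign without ESC-Grb10 pA replicate 3 or ESC-E14 replicate 1.

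Same-numbered libraries showed little shared deviation (correlations of -0.09 to 0.13). This shows no strong shared effect of the replicate number but cannot show that the samples are unpaired. The replicate block passed Dpp4 in NPC-Podxl pA (log2 fold change 0.56) and changed no other call of a member. Depth limits Habp2, Tfec and Rhbdl3 in ESCs, where a library held 0 to 22 counts.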
